A study of Sus scrofa with 6 samples.

Results

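Calcium crosses an epithelium through the cell in 3 steps, and 5 genes of that route were followed here in the endometrium, the inner lining of the uterus. They were chosen by name: TRPV6 (ENSSSCG00000016469), the channel of the apical membrane, S100G (ENSSSCG00000012147), the carrier in the cytosol, ATP2B1 (ENSSSCG00000027898) and ATP2B4 (ENSSSCG00000015273), pumps of the plasma membrane, and VDR (ENSSSCG00000020864), the vitamin D receptor. All 5 matched 1 row each among the 14262 genes of the table. The tissue came from 6 Erhualian sows, a Chinese breed of Sus scrofa, all on day 12 of gestation. Of these, 3 were high prolific (high 1, high 2 and high 3, of parity 5, 8 and 8) and 3 were low prolific (low 1, low 2 and low 3, of parity 7, 7 and 5), parity being the number of litters borne. The title of the series pairs litter size with calcium ion concentration. No calcium measurement of a single sow was used here. All values are normalized read counts of 1 library per sow.

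TRPV6 is a calcium-selective channel that lets calcium enter from the lumen down its gradient. S100G, also known as calbindin-D9k, binds the entering calcium and carries it across the cytosol, and the plasma membrane pumps drive it out at the basolateral side with energy from ATP. In the gut, the vitamin D receptor pairs with a retinoid X receptor and induces TRPV6 and S100G, while in the uterus both genes are also known to respond to ovarian steroids. Day 12 falls in the period in which the pig conceptus elongates and signals to the uterus by estrogen.

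The deposited columns summed to between 22663087 (high 2) and 24270245 (low 2). The mean sum was higher in the low prolific sows, and the groups overlapped. An exact two-sided permutation test of the sums gave p = 0.2. Its 20 assignments allow no p below 0.1, so it could not show a difference at 0.05. These sums are set by the authors' normalization, so the sequencing depth behind a value is unknown. The samples were compared with limma on log2(value + 1) over all 14262 genes, with p-values adjusted by the Benjamini-Hochberg method at a threshold of 0.05. A negative log2 fold change on that scale means a lower level in high prolific sows. Limma called 0 of 14262 genes (0%), and 1129 genes (7.92%) had an unadjusted p under 0.05. No other tool was run on these values. In 1926 genes, 13.5% of all, the values of 1 group all lay on one side of the other's. Each library is 1 animal per the labels, and 3 animals per group limit what the comparison can resolve.

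All 5 genes had a log2 fold change below 0, as did 50.4% of all genes, and none of the 5 passed the test. Their median log2 fold change was -0.19, against -0.0024 over all genes. The sizes were unequal. The entry channel and the carrier differed by over 1 log2 unit between the group means, and the pumps and the receptor by 0.19 or less. The channel and the carrier also spread most over the 6 sows, a spread that includes the difference between the groups. By the standard deviation of log2 values over the 6 sows, TRPV6 ranked 84 of 14262 genes, S100G 512, VDR 3277, ATP2B4 6020 and ATP2B1 10404.

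**Figure D1:**
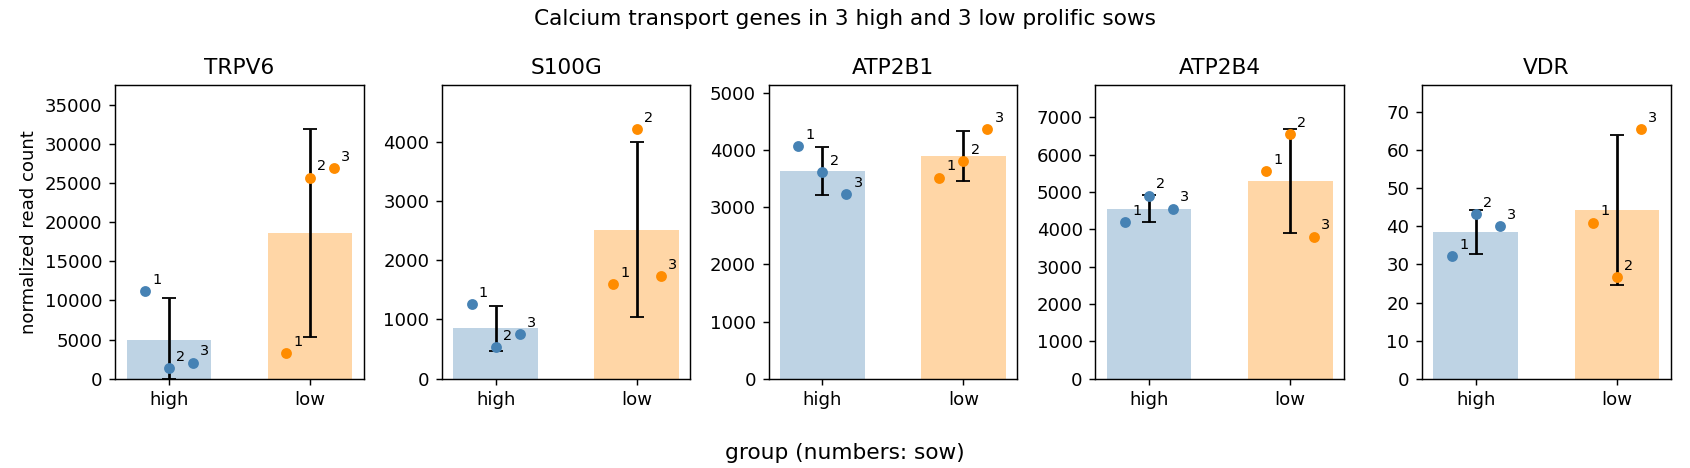
Normalized read counts (linear axes from 0) of TRPV6, S100G, ATP2B1, ATP2B4 and VDR by group (blue: high prolific, orange: low prolific); a bar shows the mean of 3 sows with its SD (cut at 0 where the SD exceeds the mean), and each numbered point is a sow. TRPV6 runs from 1391 to 26888 and overlaps between the groups, S100G lies lower in all 3 high prolific sows, and the other 3 genes overlap.

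TRPV6, the apical entry channel, was at 11187 in high 1, 1391 in high 2 and 2058 in high 3. In the low prolific sows it was at 3297 in low 1, 25678 in low 2 and 26888 in low 3. From the top, the order of sows was low 3, low 2, high 1, low 1, high 3 and high 2, which cut across the groups. High 1 lay in between, nearer to low 1 than to low 2 in counts and nearer to low 2 in log2 values. The highest sow was at 19.3 times the lowest. Within the high prolific group the span from lowest to highest sow was 8.04-fold and within the low prolific group 8.16-fold. The group means of the log2 values lay 4.14-fold apart, which is another measure than a span of single sows. The log2 fold change was -2.05 ± 1.08 (SE, n = 3 per group), with a 95% interval from -4.66 to 0.56 and an adjusted p of 0.657 with limma. Without both low 2 and low 3, where 1 low prolific sow remains, it was -0.05. These were the highest sows in TRPV6, so leaving them out shrinks its difference by construction. Without low 1 the log2 fold change of TRPV6 was -3.05, and without high 1 it was -2.96. The group label accounted for 36.2% of the sum of squares of its log2 values.

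S100G, the cytosolic carrier, was at 1258, 535 and 745 in high 1 to high 3 and at 1590, 4213 and 1734 in low 1 to low 3. All 3 high prolific sows lay below all 3 low prolific sows, the smallest gap being that between high 1 and low 1. Non-overlap in this direction was found in 6.32% of all genes. The log2 fold change was -1.51 ± 0.46 (SE, n = 3 per group), 2.85-fold lower in high prolific sows, with a 95% interval from -2.63 to -0.39. The unadjusted p was 0.0157 and the adjusted p 0.619 with limma, so it did not pass over all genes. An exact permutation test of the log2 means gave p = 0.1, the smallest that 3 against 3 sows allow. The highest value, in low 2, was 2.65 times the lowest of its group. Without low 2 the log2 fold change was -1.06, and without both low 2 and low 3, where 1 low prolific sow remains and is assumed to vary like the others, it was -1.0.

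The plasma membrane pump ATP2B1, the main exit pump of absorbing epithelia and also present in other cell types, was at 4065, 3610 and 3234 in the high and at 3517, 3802 and 4370 in the low prolific sows. Its 6 values lay within 1.35-fold of each other and the groups overlapped. The log2 fold change was -0.10 ± 0.13 (SE), with a 95% interval from -0.42 to 0.22 and an adjusted p of 0.852 with limma. The interval holds 0 and does not show that the groups were equal.

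ATP2B4, the other widely expressed plasma membrane pump, was at 4185, 4906 and 4558 in high 1 to high 3 and at 5551, 6548 and 3804 in low 1 to low 3. Low 2 was its highest sow and low 3 its lowest, so the low prolific group enclosed the high prolific one. The log2 fold change of -0.19 ± 0.21 (SE) had a 95% interval from -0.69 to 0.32 and an adjusted p of 0.812 with limma. It was -0.02 without low 2 and -0.41 without low 3.

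VDR, the nuclear receptor for the active form of vitamin D, had the lowest counts of the 5 genes. It was at 32.3, 43.3 and 40.1 in high 1 to high 3 and at 41.0, 26.6 and 65.6 in low 1 to low 3. Both extremes lay in the low prolific group. The log2 fold change of -0.12 ± 0.37 (SE, adjusted p = 0.944 with limma) turned to 0.21 without low 3, and its 95% interval ran from -1.01 to 0.78. A filter at a mean of at least 200 removed VDR and kept the other 4 genes.

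The genes were next compared sow by sow. On the log2 scale, high 2 and high 3 lay 2.22 and 1.65 units below the TRPV6 mean over the 6 sows, and these same sows were the lowest in S100G, at 1.32 and 0.85 units below its mean. Low 2 lay 1.99 above the TRPV6 mean and 1.65 above the S100G mean. Low 3 parted from this pattern, at 2.06 above the mean in TRPV6 and 0.37 in S100G. High 1 was 0.79 above the mean in TRPV6 and at -0.09 in S100G, and low 1 was at -0.97 and 0.25. Low 2 and low 3, nearly equal in TRPV6, went opposite ways in VDR (-0.57 and 0.70) and in ATP2B4 (0.43 and -0.35).

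**Figure D2:**
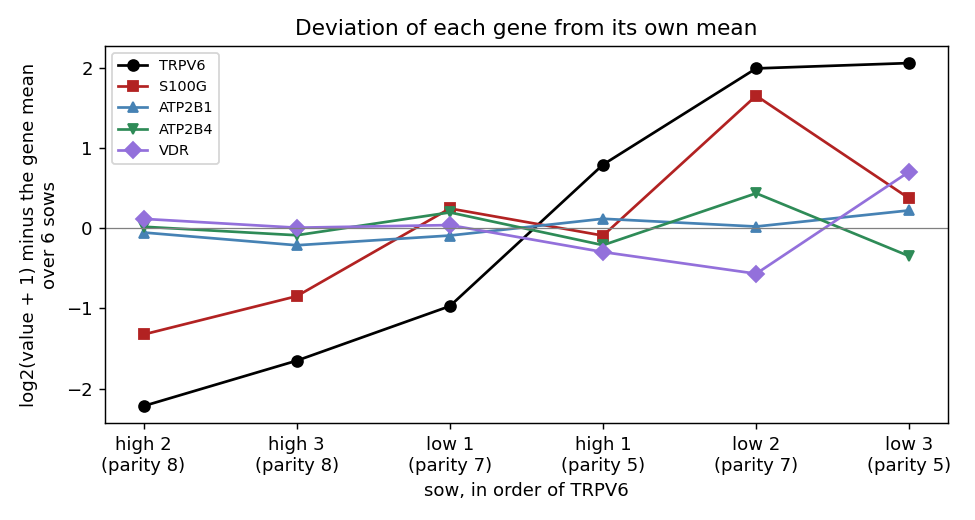
Deviation of log2(value + 1) from the mean of each gene over the 6 sows, with sows ordered by TRPV6 and parity in brackets; each line is 1 gene. TRPV6 spans from -2.22 to 2.06 and S100G from -1.32 to 1.65, while ATP2B1 stays between -0.21 and 0.22.

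TRPV6 and S100G had the highest correlation of the 10 pairs, with a Pearson r of 0.832 (exact permutation p = 0.0361) and a Spearman rho of 0.886 (exact permutation p = 0.0333) over 6 sows. Adjusted over the 10 pairs the p-values were 0.340 and 0.333, so the pair did not pass. Without high 2 and low 3, the sows farthest from the TRPV6 median, r was 0.833 over 4 sows. Taken as deviations from the group means, r was 0.730, and within the groups of 3 it was 0.977 in high and 0.552 in low prolific sows. S100G ranked 1035 of 14261 genes by its r with TRPV6, which puts 7.25% of all genes above it. No batch is named in the labels, so no value within a batch can be given.

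TRPV6 and ATP2B1 followed with r = 0.796 (exact permutation p = 0.0681, adjusted p = 0.340) and rho = 0.771 (exact permutation p = 0.103, adjusted p = 0.514), although ATP2B1 spanned a far narrower range. Here r was 0.781 for deviations from the group means and 0.819 without high 2 and low 3. S100G and ATP2B1 had r = 0.416 (exact permutation p = 0.414, adjusted p = 0.690) and rho = 0.486 (exact permutation p = 0.356, adjusted p = 0.711). The 2 pumps had r = -0.425 (exact permutation p = 0.394, adjusted p = 0.690) and rho = -0.486 (exact permutation p = 0.356, adjusted p = 0.711), which was -0.448 in Pearson r without high 3 and low 3 and near 0 (-0.0045) when low 3 alone was left out.

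VDR had r = -0.055 with TRPV6 (exact permutation p = 0.894, adjusted p = 0.939) and r = -0.357 with S100G (exact permutation p = 0.497, adjusted p = 0.710), with rho of -0.086 and -0.257 (exact permutation p = 0.919 and 0.658, adjusted p = 0.919 and 0.892). The receptor was at its lowest in low 2, where S100G was highest and TRPV6 nearly so. It was at its highest in low 3, where TRPV6 was highest. VDR and ATP2B4 had r = -0.691 (exact permutation p = 0.118, adjusted p = 0.394) and rho = -0.486 (exact permutation p = 0.356, adjusted p = 0.711). That relation rests on low 2 and low 3, since r was 0.735 over the other 4 sows. ATP2B4 had r = -0.040 with TRPV6 (exact permutation p = 0.939, adjusted p = 0.939) and r = 0.480 with S100G (exact permutation p = 0.336, adjusted p = 0.690), the latter turning to -0.061 without high 2 and low 2. Their rho was -0.257 and 0.200 (exact permutation p = 0.658 and 0.714, adjusted p = 0.892 for both). ATP2B1 and VDR had r = 0.297 (exact permutation p = 0.597, adjusted p = 0.747) and rho = 0.143 (exact permutation p = 0.803, adjusted p = 0.892), and r was -0.661 without high 3 and low 3.

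**Figure D3:**
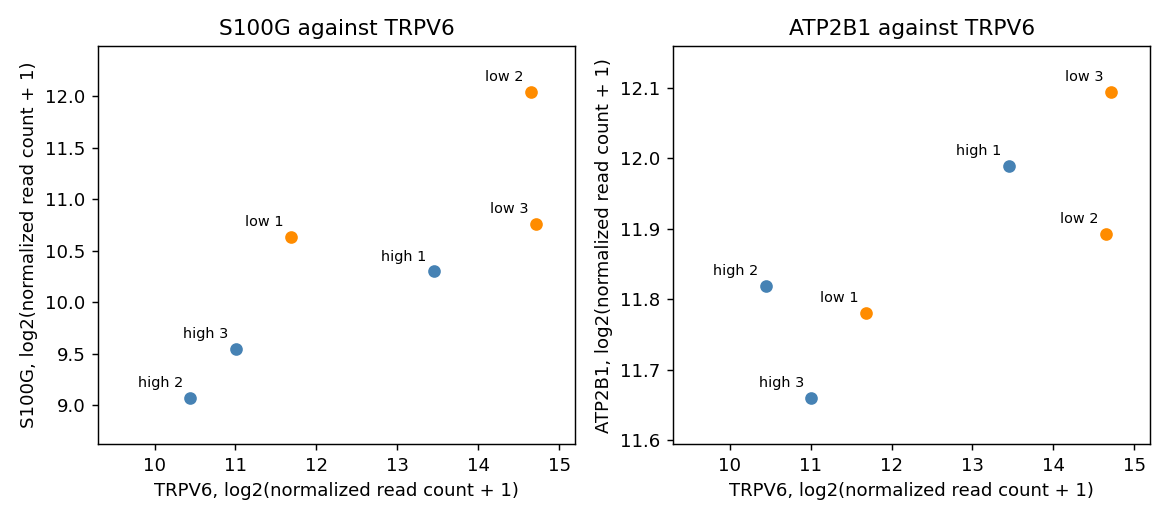
Log2(normalized read count + 1) of S100G (left) and ATP2B1 (right) against TRPV6 in the 6 sows, high in blue and low in orange; the vertical axes differ in range and do not start at 0. Pearson r is 0.832 for S100G and 0.796 for ATP2B1, and low 3 lies to the lower right of low 2 for S100G.

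Genes whose pattern over the 6 sows was most like each of the 5 were listed by Pearson r of log2 values, among genes with a symbol and a mean of at least 50. For TRPV6 these were BMP1, a procollagen protease (r = 0.998), BPGM, an enzyme of red cell glycolysis (0.995), the cell cycle factor FOXM1 (0.994), the transcription factor ZFHX3 (0.994) and EZR, ezrin of the microvillus (0.993). BMP1 was at 1372, 981 and 1042 in the high and at 1133, 1546 and 1517 in the low prolific sows, and EZR at between 11039 and 16085. They kept the order of sows seen in TRPV6 up to the near-tied pair of low 2 and low 3, but over much narrower ranges. There were 519 genes at r of 0.9 or above with TRPV6, 3.64% of the others. The same share was 3.05% for ATP2B1, 2.45% for S100G, 1.63% for ATP2B4 and 0.568% for VDR. Each r rests on 6 sows only, and the cause of these shares was not tested.

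For S100G the list was RHBG, an ammonium transporter of epithelia (r = 0.997), CHCHD10 of mitochondria (0.995), MPP4 (0.991), the phosphatase PTPN5 (0.990) and VTCN1, a surface protein that restrains T cells (0.990). RHBG was at 209, 65.0 and 103 in the high and at 270, 802 and 328 in the low prolific sows, and VTCN1 at 388, 127 and 196 against 420, 1252 and 392. Both had the peak in low 2 and the trough in high 2 that S100G had. None of the 5 was on the list for TRPV6.

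For ATP2B1 the list was FAM110D (0.996), CYYR1 (0.995), PCOLCE2, a procollagen protease enhancer (0.994), ITM2A (0.994) and TMEM44 (0.992), and for ATP2B4 it was ZBTB8B (0.989), the corepressor TRIM28 (0.989), RABEP2 (0.987), SAMM50 of the outer mitochondrial membrane (0.984) and IMPA2, an inositol phosphatase (0.983). CYYR1 was at 983, 614 and 419 in the high and at 578, 846 and 1310 in the low prolific sows, a wider range than that of ATP2B1 in the same order. For VDR the list was NDST2, a heparan sulfate enzyme (0.995), SMIM29 (0.985), B3GAT2 (0.985), CAMK1G, a calmodulin-dependent kinase (0.982), and NLRC5, a regulator of class I histocompatibility genes (0.968). The likeness of NDST2, which ranged only from 1098 to 1168, was as low as 0.713 under another scaling of the columns.

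Beyond the 5 genes, 7 of 11 listed genes of the same route had a row. Of these, 3 lay lower and 4 higher in high prolific sows, with a median log2 fold change of 0.05, and none passed. The groups did not overlap in 2 of the 7, against 13.5% of all genes. ATP2B2, a plasma membrane pump best known from hair cells and the lactating mammary gland, was at 37.4, 25.5 and 27.3 in the high and at 51.5, 152 and 82.0 in the low prolific sows. It was thus lower in all 3 high prolific sows and peaked in low 2, as S100G did (log2 fold change -1.51 ± 0.43, SE, adjusted p = 0.619 with limma). This estimate was -0.77 without both low 2 and low 3. The sodium/calcium exchanger SLC8A3 had 301, 293 and 202 against 108, 89.1 and 96.7, higher in all 3 high prolific sows, a kind of non-overlap found in 7.18% of all genes. Its log2 fold change was 1.41 ± 0.21 (SE, unadjusted p = 0.00043, adjusted p = 0.511 with limma), so it did not pass. The estimate lay between 1.27 and 1.59 in the alternatives that kept the gene. The exchanger SLC8A1, which shares the exit step with the pumps, was at 765 ± 58 against 805 ± 165 (SD, n = 3), and its estimate of -0.05 on the log2 scale became 0.07 without low 3. SLC8B1, the exchanger of mitochondria, was at 391 ± 18.4 against 471 ± 103. TRPV5, CALB1, CALB2 and BSG matched no row by symbol and are not analysed here.

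Partners and regulators of the channel were measured for 12 of 16 listed genes, with 9 lower and 3 higher in high prolific sows, a median log2 fold change of -0.07 and none past the test. Groups did not overlap in 3 of the 12, against 13.5% of all genes. S100A10, which with annexin A2 carries the channel to the membrane, was at 2284, 1601 and 2178 in the high and at 2931, 3341 and 3471 in the low prolific sows (log2 fold change -0.70 ± 0.16, SE, adjusted p = 0.619 with limma). ANXA2, annexin A2 itself, was at 11843, 11256 and 15306 against 21070, 16141 and 11221, so the groups overlapped, with low 3, where TRPV6 was highest, and high 2, where it was lowest, nearly equal at the bottom. NEDD4L, a ubiquitin ligase that removes channels from the membrane, went the other way, at 6786, 8626 and 8866 against 5371, 6254 and 4822 (0.56 ± 0.16, adjusted p = 0.619 with limma). All 3 high prolific sows were above all low prolific sows in NEDD4L. SGK1, a kinase that restrains NEDD4L, was at 5389 ± 2334 against 9209 ± 2405 (SD, n = 3), with overlap. WNK3, a kinase known to raise surface TRPV6, was at 247 ± 50.3 against 167 ± 44.7, and BSPRY, which binds the related TRPV5, at 628 ± 122 against 468 ± 59.5.

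**Figure D4:**
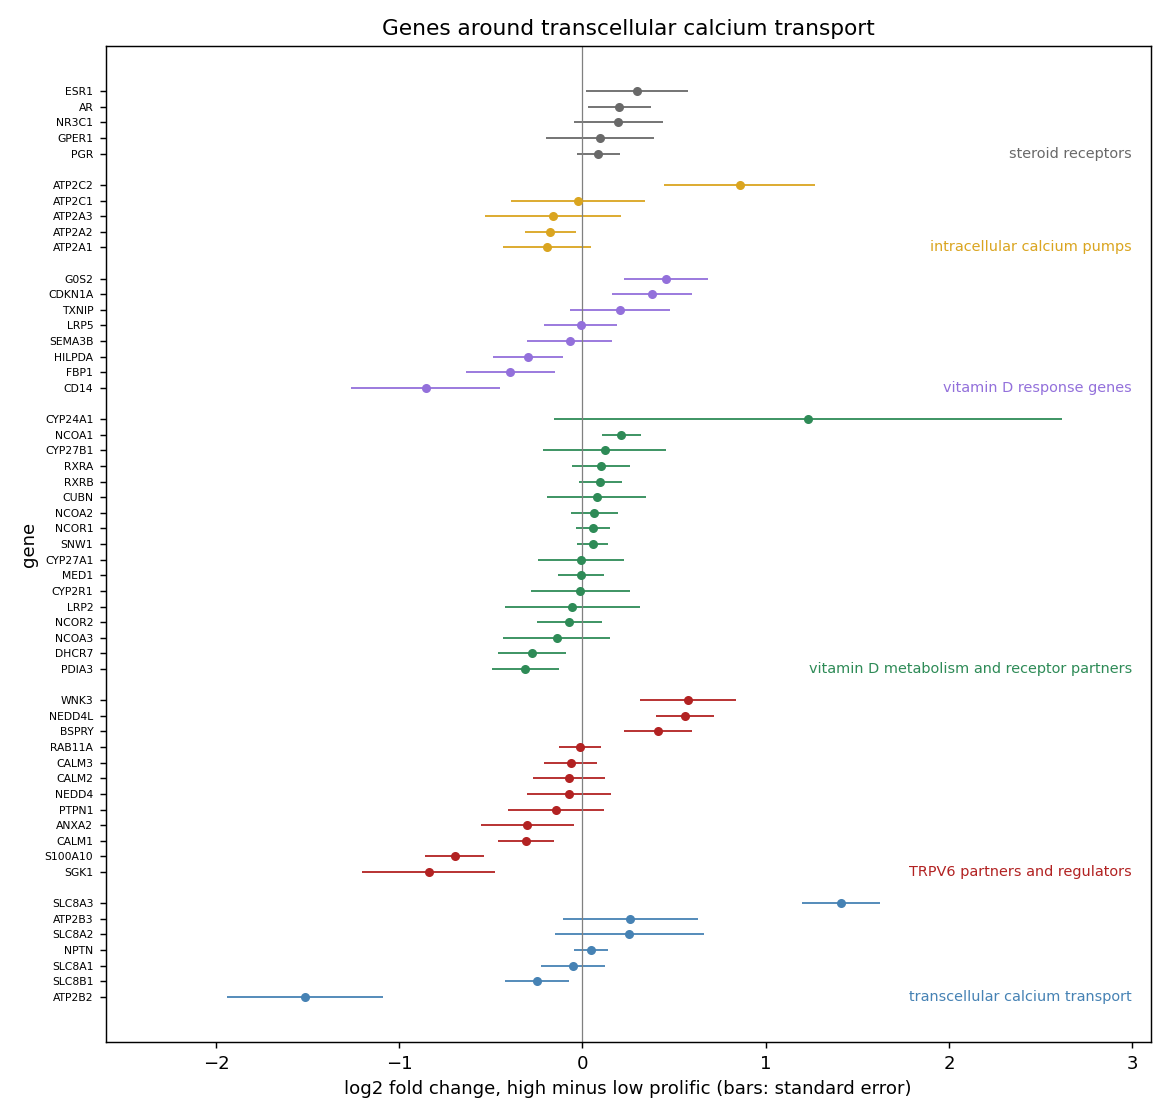
Log2 fold changes (high minus low prolific sows, 3 against 3) of the measured genes of 6 lists around transcellular calcium transport; points are limma estimates, bars standard errors and colours the lists named at the right. SLC8A3 (1.41) and ATP2B2 (-1.51) lie at the ends of the first list, CYP24A1 (1.23) has the widest bar, and none of the genes passed over all genes.

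Vitamin D metabolism and receptor partners were measured for 17 of 19 listed genes, 8 lower and 9 higher, with a median log2 fold change of 0.06 and none past the test. CYP24A1, the enzyme that breaks down active vitamin D and a classical target of its receptor, was at 150, 9.24 and 371 in the high and at 101, 20.1 and 19.7 in the low prolific sows. CYP24A1 was lowest in high 2, as TRPV6 and S100G were, but low 2 and low 3 were also among its 3 lowest sows. It thus did not follow TRPV6 or S100G over all sows. Its log2 fold change of 1.23 ± 1.39 (SE) was 0.15 when high 3 was left out and -0.29 without both low 2 and low 3. CYP27B1, which makes active vitamin D, was at 115 ± 49.9 against 99.5 ± 6.8, and RXRA, the partner of the receptor, at 1976 ± 87.6 against 1867 ± 390. The groups did not overlap in 1 of the 17, against 13.5% of all genes, and that gene was the coactivator NCOA1, at 2123 ± 222 against 1827 ± 34.9 (SD, n = 3).

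Among 8 of 14 listed genes known to respond to vitamin D in other cells, 5 lay lower and 3 higher (median log2 fold change -0.04), none passed and the groups overlapped in each. CD14 was at 301, 198 and 183 against 221, 494 and 596, with low 2 and low 3 highest, and the estimate of -0.85 was 0.0065 without both. G0S2 was at 200 ± 31.3 against 147 ± 31.1. All 5 intracellular calcium pumps had a row and none passed, with ATP2A2 of the endoplasmic reticulum at 7819 ± 325 against 8897 ± 1394 and ATP2C2 of the secretory pathway at 412 ± 120 against 242 ± 136. The 5 measured steroid receptors of 6 listed all lay higher by the estimate (median 0.20), with ESR1, the estrogen receptor, at 7137, 9672 and 7232 in the high and at 9736, 5523 and 4983 in the low prolific sows. ESR1 was thus lowest in low 2 and low 3, where TRPV6 was highest, and the estimate of 0.30 turned to -0.30 without both. PGR, the progesterone receptor, was at 767, 741 and 805 against 798, 649 and 738, and its estimate of 0.09 turned to -0.05 without both.

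Since these are bulk samples, fewer cells of a type and less RNA per cell cannot be told apart. Epithelial markers, 11 of 12 with a row, summed to 74956, 78211 and 75843 in the high and to 87495, 79578 and 61952 in the low prolific sows. The sum was lowest in low 3, where TRPV6 was highest, but the markers did not move together there. KRT8, KRT18, EPCAM, ESRP1 and FOXA2 were at their lowest in low 3, while CDH1, CLDN4 and ELF3 lay above all 3 high prolific sows. None of the 11 was at 0 in any library. Within the list 4 markers lay lower and 7 higher in high prolific sows. KRT7, a keratin of simple epithelia, was at 2926, 6709 and 5019 against 6150, 1566 and 1749, and KRT8 at 19084, 27435 and 23245 against 25335, 14061 and 11217. Both KRT7 and KRT8 were highest in the 3 sows lowest in TRPV6. So was the epithelial marker GRHL2, at 1556, 1735 and 1978 against 1710, 1299 and 1582. The keratin KRT18, at 5252, 5687 and 4726 against 6548, 3245 and 3059, did not share this, since high 1 lay above high 3. ELF3 went the other way, at 1666, 971 and 887 against 1410, 2031 and 1814, highest in the 3 sows highest in TRPV6. CDH1, E-cadherin, at 18895, 15319 and 17948 against 22226, 26177 and 19927, and the tight junction gene CLDN4, at 7148, 5140 and 7787 against 8175, 14154 and 9094, were lower in all 3 high prolific sows, as S100G was. The groups did not overlap in 2 of the 11 epithelial markers, against 13.5% of all genes. The markers named here were picked after their values were seen, none passed, and their part in the results on TRPV6 and S100G was not tested.

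The other marker lists differed in their order of sows. Endothelial markers (5 of 7 with a row, all 5 lower by the estimate) summed to 13249, 9608 and 8443 in the high and to 11214, 14897 and 20799 in the low prolific sows, and stromal markers (9 of 9, 7 lower) to between 509568 in high 2 and 814896 in low 2. In both lists low 2, low 3 and high 1 had the highest sums, which are the 3 sows highest in TRPV6. Of the endothelial markers, TIE1, KDR and CDH5 had these sows highest, and PECAM1 and TEK did not. PECAM1 was at 3201, 2356 and 2663 in the high and at 4211, 4834 and 6353 in the low prolific sows. It was the 1 of 5 endothelial markers whose groups did not overlap, against 13.5% of all genes, and it did not pass. Most of each stromal sum came from the collagens COL1A1, COL1A2 and COL3A1, which had the same 3 sows highest. None of the other stromal markers did, though DCN and PDGFRB missed it narrowly. DCN was at 30898 in high 3 and 30882 in low 2, and PDGFRB at 4566 in high 1 and 4574 in low 1. HOXA10 was farther from that order, at 1986, 1622 and 1571 in the high and at 1561, 1509 and 1935 in the low prolific sows. Neutrophil markers (4 of 7 with a row, 3 lower and 1 higher by the estimate) summed to 5958, 276 and 9139 against 11666, 23295 and 18044. Of these, S100A8 was at 713, 2.22 and 113 against 85.2, 5414 and 10857 and S100A12 at 582, 3.97 and 170 against 169, 7533 and 5283. The other markers of that list did not share this order, with MMP8 at 4278, 168 and 8703 against 11244, 10304 and 1706 and CSF3R at 385, 102 and 152 against 168, 44.3 and 199. Smooth muscle markers (5 of 6 with a row) had a median log2 fold change of -0.98, and in 4 of the 5, against 13.5% of all genes, the groups did not overlap. ACTA2 was at 4881, 2732 and 4779 in the high and at 6676, 10018 and 7297 in the low prolific sows, and ACTG2 at 476, 118 and 317 against 727, 1882 and 947. DES was at 473, 111 and 409 against 506, 646 and 660, and CNN1 at 806, 325 and 758 against 823, 1296 and 919. These 4 genes of the contractile apparatus and cytoskeleton were lower in all 3 high prolific sows and lowest in high 2, as S100G was, and none passed. MYH11, the smooth muscle myosin heavy chain, differed from them, at 13483, 21899 and 11627 against 16882, 13364 and 7667, and it took the largest part of the summed level, which overlapped (17489 in low 3 to 27207 in low 2). Lymphocyte and macrophage markers (9 of 10) summed to between 3567 and 4640. Of these marker genes, none was at 0 in any library, and their part in the results on TRPV6 and S100G was not tested. Single genes of these lists were named after their values were seen.

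Trophoblast also makes TRPV6 in other species, and 6 of 15 listed trophoblast genes had a row. They summed to 3784, 4940 and 4492 in the high and to 3919, 2712 and 2672 in the low prolific sows, lowest in low 2 and low 3, and most of each sum was GATA2, which the uterus itself expresses. The symbol PAG1 is shared by an unrelated adaptor gene, so its row (between 148 and 220) may not be a pregnancy-associated glycoprotein. IL1B2, CYP17A1 and CYP19A1, which mark the pig conceptus at this stage, matched no row and are not analysed here.

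Parity was read beside the groups. TRPV6 was at 11187 and 26888 in the sows of parity 5, at 3297 and 25678 in those of parity 7 and at 1391 and 2058 in those of parity 8, so the sows of parity 8 were the lowest. Both sows of parity 8 were high prolific, and group and parity are therefore partly confounded. With parity as a covariate the log2 fold change of TRPV6 was -1.47 and that of S100G -1.42, and neither passed. In the same fit, a slope added after the values were seen, TRPV6 lay lower by 0.87 log2 units per litter (unadjusted p = 0.0343, adjusted p = 0.509 with limma), where 9.42% of all genes had an unadjusted p under 0.05 for the slope and 0% passed. The slope of S100G was -0.14, that of ATP2B1 -0.10, that of ATP2B4 0.14 and that of VDR -0.07, with adjusted p between 0.545 and 0.897 with limma.

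**Figure D5:**
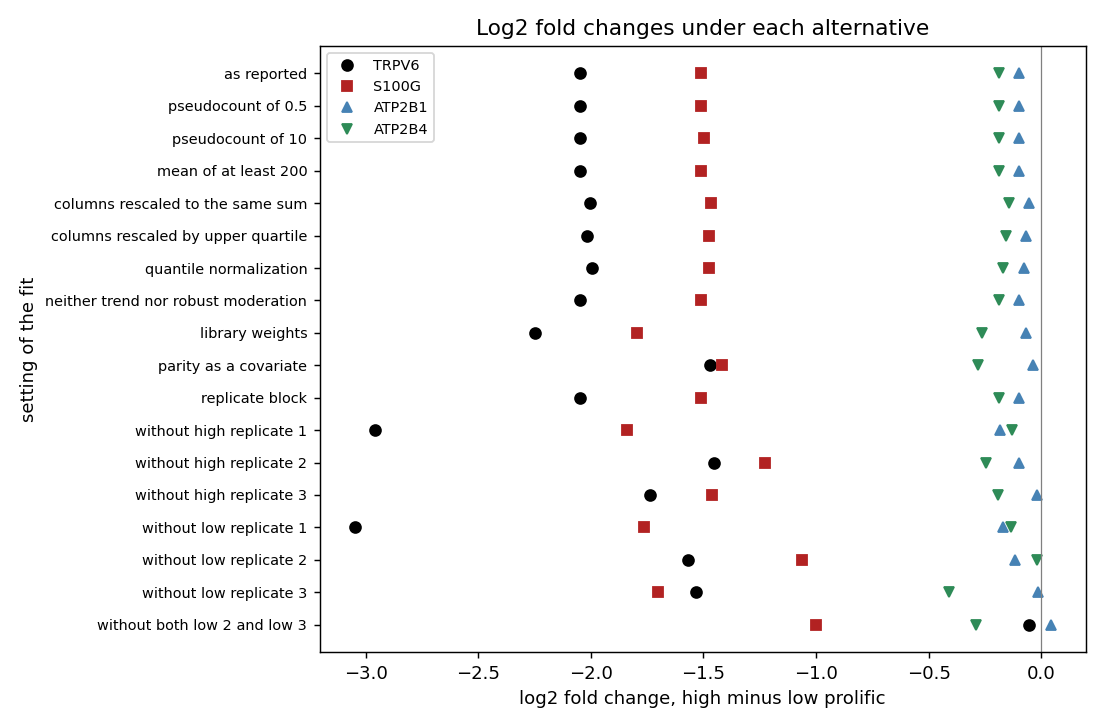
Log2 fold changes (high minus low prolific) of TRPV6, S100G, ATP2B1 and ATP2B4 as reported and under 17 alternatives, 1 row per setting; points are limma estimates. TRPV6 runs from -3.05 without low 1 to -0.05 without both low 2 and low 3, S100G stays between -1.84 and -1.0, and both pumps lie within 0.41 of 0.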

How the data were processed

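Endometrial RNA of 6 sows, extracted with Trizol and sequenced on Illumina libraries per the labels, was used as 1 deposited table of normalized read counts, a signal that is never negative and not whole. Subread 1.6, featureCounts and edgeR are named in the submitters' processing notes. What each did, the kind of normalization, the genome build, the annotation and the strand setting are not given in the sources used here. Coordinates are therefore not printed. When values under 20 were divided by the best step of each library, between 40.6% (high 2) and 100% (high 3) came within 0.1 of a whole number, so whole reads were not recovered, no count model was run, and no counting interval is given. Symbols matched 11977 of 14262 genes. How the authors counted reads shared by similar or overlapping genes is unknown. A planned motif search in promoters was not made, and no sequence was used here.

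Limma 3.58.1 in R 4.3.3 was run on log2(value + 1) with its trend and robust options, two-sided and without a block, and was checked on simulated data. This scale understates the change of low genes. Correlations used exact two-sided permutation tests over pairings in Python 3.11.15. From each pathway list at most 5 genes with the smallest unadjusted p were named, beside SLC8A1, S100A10, ANXA2, CYP24A1, CYP27B1, RXRA, ESR1 and PGR, and for each of the 5 genes the 5 of most like pattern. The genes, lists and rules were chosen with earlier results of these data known. Alternatives were 2 other pseudocounts, a filter at a mean of 200, 3 other scalings, plain moderation, library weights, parity, a replicate block and each sow left out. Leaving out both low 2 and low 3, and all alternatives for likeness, were added after seeing the data. Low 2 and low 3 were picked as the sows highest in TRPV6.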

Additional observations from a re-analysis of the deposited data

How the results depend on the processing

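None of the 5 genes passed under any of the alternatives run. TRPV6, S100G and ATP2B4 kept a log2 fold change below 0 in all 17. The correlations of TRPV6 with S100G (0.710 to 0.897) and with ATP2B1 (0.649 to 0.896) stayed above 0. Over single sows left out, limma called between 0 and 4 genes (4 without low 1, 1 without low 2), and between 466 (without high 2) and 1872 (without low 1) genes had an unadjusted p under 0.05. Without both low 2 and low 3 there were 631 such genes. The replicate numbers mark separate animals. Deviations from the group means of same-numbered sows correlated at -0.378, -0.163 and -0.357, no sow correlated best with its own number, and the replicate block gave 615 such genes and 0 calls.

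None of the values that turned had passed its test. Without both low 2 and low 3, ATP2B1 was at 0.042, CYP24A1 at -0.29, CD14 at 0.0065, ESR1 at -0.30, PGR at -0.051, KRT7 at -0.41, KRT8 at -0.14 and MYH11 at -0.16, and r was -0.730 for ATP2B1 with VDR and 0.735 for ATP2B4 with VDR. With library weights VDR was at 0.091 and SLC8A1 at 0.00034, and with parity CYP27B1 was at -0.012. Over single sows left out, log2 fold changes ran from -0.43 to 0.21 for VDR (0.0024 without high 1, 0.21 without low 3), from -0.23 to 0.074 for SLC8A1, from -0.19 to 0.44 for CYP27B1, from -0.025 to 0.26 for RXRA, from -0.0081 to 1.08 for CSF3R and from -2.78 to 0.067 for MMP8. Correlations then ran from -0.767 to 0.426 for TRPV6 with ATP2B4, from -0.977 to 0.437 for TRPV6 with VDR, from -0.251 to 0.745 for S100G with ATP2B4, from -0.850 to 0.305 for S100G with VDR and from -0.629 to 0.483 for ATP2B1 with VDR. The cause of these turns was not tested. The filter at a mean of 200 left out VDR. The depth behind the values is unknown, so the counting error of low genes such as VDR could not be given.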
